A study of Macaca fascicularis with 132 samples.

Results

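Among 10811 genes that reached a mean of 5 CPM (counts per 1000000 counts of a library) in any control group of cultured macaque blood mononuclear cells, 33 lost much of their level within a day of culture and stood higher in parallel cultures that held interleukin-15 (IL-15). They were chosen from a table of 38550 gene rows by their own values. The counts of the 3 libraries of each animal and group were summed and scaled to CPM, and log2(CPM + 1) was averaged over 4 animals. A gene was taken when control culture at 24 h lay 1 or more below 0 h on this log2 scale, the IL-15 difference (IL-15 minus control at the same time) was under 0.3 at 2 h, and that difference was at least 0.6 at 12, 24 and 48 h. The fall in control culture at 24 h and the IL-15 differences at 2, 12, 24 and 48 h are therefore descriptions and carry no test. In all, 448 genes over the floor met the limit on the control change, so that 415 other culture-lost genes did not meet the limits on IL-15. The table identifies genes by ID only, and 0 of its IDs could be matched to a symbol in the reference used here, so 4 IDs are printed, no function is given to any gene, and markers of cell types could not be checked.

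The cells came from the blood of 2 female and 2 male cynomolgus macaques, with no genotype or age in the labels. IL-15 was given as the heterodimer with its alpha receptor chain (IL-15/IL-15Ra) at 40 ng/ml, and these cultures were sampled at 2, 6, 12, 24 and 48 h, and control cultures with 0 ng/ml at 0, 2, 6, 12, 24 and 48 h, with 3 libraries per animal and group. The design text names 6 animals, and the 4 given here were used. Every culture was kept outside the body, so the controls share the handling and the medium, and only the 0 h samples show the level before culture. The libraries held between 16423972 and 87944372 counts, and the lowest sum of any of the 33 genes in any of the 44 sums was 47 counts. Of the libraries, 3 stood apart from their sister libraries (control at 48 h of animal 38142, control at 2 h of animal 38157 and IL-15 at 24 h of animal 38147). Without them the rule again gave 33 genes, of which 32 were among those described here. Column names carry unexplained tokens that divide the libraries into 6 sets, treated as possible batches.

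IL-15 acts through the beta chain that it shares with IL-2 and the common gamma chain, which signal through JAK kinases and the transcription factor STAT5. It is known for keeping natural killer cells and memory CD8 T cells alive, and its alpha receptor chain presents it to these cells. Blood mononuclear cells are a mixture of T cells, B cells, natural killer cells, monocytes and dendritic cells, and monocytes are known to adhere and to change their RNA in culture. In such bulk samples fewer cells of a type and less RNA per cell cannot be told apart.

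The 33 genes spanned low and high levels before culture, between 7.56 and 1081 CPM at 0 h with a median of 69.2 CPM, and 15 of them were at 100 CPM or more. Their summed level shows the size of the loss. At 24 h it was 4674 ± 1804 CPM with IL-15, against 1842 ± 321 CPM in control cultures and 5502 ± 969 CPM before culture (SD, n = 4 animals). Of the individual animals, 38142, 38147, 38155 and 38157 had 4388, 3975, 7254 and 3081 CPM with IL-15 at 24 h, against 1792, 1544, 2297 and 1736 CPM in control culture. The cultures with IL-15 lay above the controls in each animal, and the groups did not overlap, as the choice of the genes makes likely.

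The word "kept" held for only some of them. At 24 h a gene stood at a median of 78.7% of its 0 h level with IL-15 (12.2% to 258% over the 33 genes), against 31% in control culture (3.53% to 57.5%). With IL-15, 14 genes were at or above their 0 h level at that time and 6 were below 50% of it. In control culture 0 were at or above it and 32 were below 50%, which the limit on the control change at 24 h largely fixed. At 48 h the median was 58% with IL-15 and 26% in control culture, and 15 genes were below 50% even with IL-15. On the log2 scale the median change from 0 h with IL-15 was -0.64, -0.57, -0.31, -0.33 and -0.81 over the times of 2, 6, 12, 24 and 48 h. In control culture it was -0.54, -1.24, -1.56, -1.57 and -2.01. The median in cultures with IL-15 thus lay below that before culture from the first time on and was nearest to it at 12 and 24 h.

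**Figure D1:**
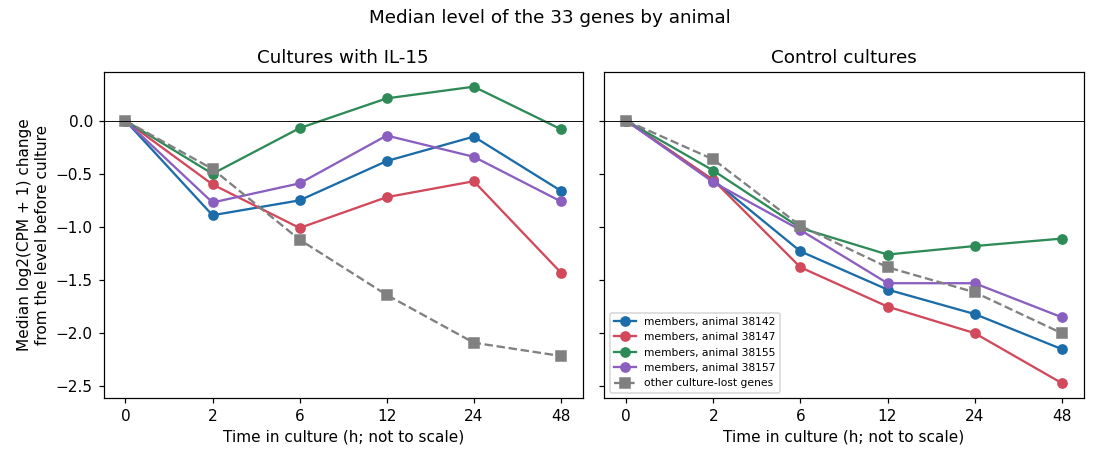
Median change of the 33 genes from the level before culture, log2(CPM + 1), against time in hours (not to scale), one line per animal, with IL-15 on the left and control on the right. The dashed line gives the median of the 4 animals for the other culture-lost genes. With IL-15 the animals lay between -0.57 and 0.32 at 24 h, and in control culture between -2.0 and -1.18.

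All scales here are relative to the other genes of a library. In control culture the median of the 10811 genes over the floor was 0.33 higher at 24 h than at 0 h by CPM, and TMM scaling, a correction for the make-up of a library, lowered the control change by 0.33 there. It raised the IL-15 difference by 0.03, 0.19, 0.17 and 0.11 over 6, 12, 24 and 48 h and lowered it at 2 h (-0.05). With TMM in the rule, 64 genes met it, and all 33 were among them.

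The 6 h samples entered the choice only through the CPM floor on control groups, which all 33 genes also passed at 0 h. They give the first independent view. At 6 h the 33 genes had a median IL-15 difference of 0.60 (-0.10 to 2.32), against -0.03 for the genes over the floor and -0.13 for the other culture-lost genes. It was above 0 for 31 of the 33, against 43.9% of the genes over the floor. The test was edgeR's quasi-likelihood test with TMM scaling and the animal as a term. It called 11 of the 33 higher with IL-15 than in control culture at 6 h (adjusted p under 0.05 over 18197 genes). Of all genes tested, 5.12% were called higher. The test called 0 of the 33 lower, also at an unadjusted p under 0.05 and with DESeq2, and 3.54% of all genes tested were lower. Of the other culture-lost genes, 15 were called higher and 15 lower.

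The number of calls at 6 h depended on the fit more than the direction did. With each animal's pair of cultures at a time as a block, 16 of the 33 were called higher (6.86% of all genes tested). With the 6 h groups fitted alone 18 were (11.6% of all genes tested). Without animal 38142, 38155 or 38157 the count was 5, 7 and 6, and without animal 38147 it was 12. The shares of all genes tested were 2.62%, 2.47%, 3.42% and 3.64% in the same order, so calls over all genes moved with the fit too. The IL-15 difference was above 0 in each of the 4 animals for 25 of the 33 genes, against 24.2% of the genes over the floor. Medians over the 33 genes were 0.57 in animal 38142, 0.29 in 38147, 0.92 in 38155 and 0.59 in 38157. Single sets of the column-name tokens here hold 1 animal with both cultures each. The median was 0.69 in Lib1 GL66 (animal 38157, 30 of 33 above 0), 0.54 in Lib1 GL67 (38142, 29 of 33) and 0.88 in Lib2 GL75 (38155, 32 of 33). In these sets 47.1%, 43.1% and 42.5% of the genes over the floor were above 0. Each of these medians rests on 2 or 3 libraries with IL-15 and 1 or 2 control libraries. The other 3 sets hold no animal with both cultures at 6 h. Animal 38147 had no set with both, so its IL-15 difference at 6 h cannot be told apart from the tokens.

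**Figure D2:**
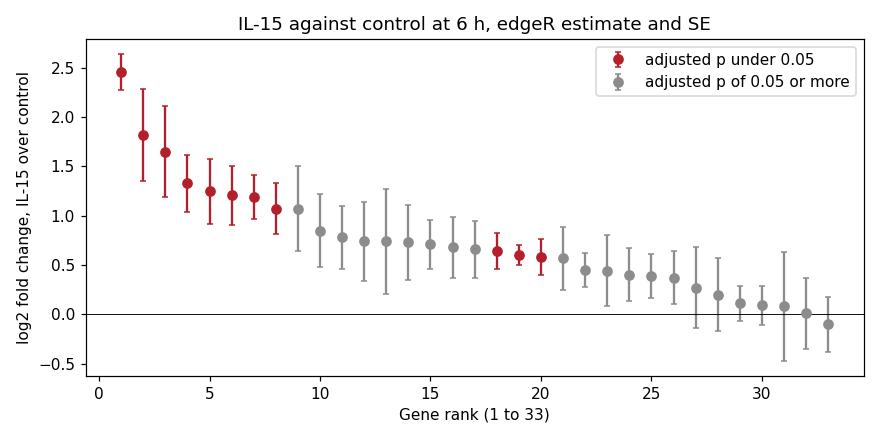
IL-15 over control at 6 h for each of the 33 genes, as the edgeR log2 fold change with its SE (4 animals), ordered by size. The 11 genes in red passed an adjusted p of 0.05, and the estimates ran from -0.10 to 2.46.

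The gene with the largest of these differences, picked for it, had 46.5, 33.5, 60.9 and 40.1 CPM with IL-15 at 6 h, against 8.67, 9.96, 7 and 6.82 CPM in control cultures of animals 38142, 38147, 38155 and 38157. Every culture with IL-15 was above every control. Its log2 fold change was 2.46 ± 0.18 (SE). The 6 h sums are what picked it, so its p-values are not given. Its level with IL-15 at 6 h was also above the 20.6 ± 2.89 CPM before culture (SD, n = 4 animals; log2 fold change 0.97 ± 0.17, SE). By mean CPM, 5 of the 33 genes were at or above their 0 h level with IL-15 at 6 h. For the picked gene the change from 0 h is given without a test, since the 0 h sums also entered the rule. Its IL-15 difference was already at its highest at 6 h.

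The most abundant of the 33 genes before culture had 808.2, 718.6, 777.1 and 770 CPM with IL-15 at 6 h in animals 38142, 38147, 38155 and 38157, against 531.1, 609.8, 482 and 463.3 CPM in control culture. Before culture the same animals had 1120, 1284, 973.6 and 947 CPM. The cultures with IL-15 lay between the controls at 6 h and the level before culture, with no overlap on either side. The log2 fold change was 0.60 ± 0.10 for IL-15 over control at 6 h (SE; edgeR adjusted p = 7.4e-05). Its 0 h level was what picked it, so the difference from 0 h is given without a test. At 48 h it had 432.7 ± 47.6 CPM with IL-15 and 255.2 ± 5.99 CPM in control culture (SD, n = 4 animals), so that it fell in both kinds of culture and was lower without IL-15.

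In control culture the median of the 33 genes was lower at each later time, but single genes ran otherwise, and 17 of them had their lowest control level at 48 h. Apart from the CPM floor, the rule used the control sums at 0, 2, 12, 24 and 48 h and the IL-15 sums at 2, 12, 24 and 48 h. Only the 6 h sums are free of these limits. Changes in control culture at 12 and 48 h against 0 h are therefore given as medians with no test. The count at 2 h also rests on sums that the rule used, and nothing is read from it. At 2 h, 13 of the 33 were lower than at 0 h in control culture (edgeR, adjusted p under 0.05), with 28.4% of all genes tested called lower, and the test called 0 higher, also at an unadjusted p under 0.05 and with DESeq2. Fitted with the 2 h and 0 h groups alone, 20 were lower and 5 higher at 2 h (30.1% and 29.6% of all genes tested). Without animal 38142 or 38157 only 8 were lower (23.7% and 24.5% of all genes tested). At 6 h, 31 of the 33 were lower than at 0 h, with 25.5% of all genes tested called lower, and part of this fall follows from the choice through the 0 h sums. Median log2 fold changes against 0 h over 2, 6, 12 and 48 h were -0.55, -1.49, -1.91 and -2.31 on the TMM scale, where the median of the genes over the floor was -0.02, 0.03, 0.02 and 0.04.

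The step between 2 and 6 h in control culture uses no 0 h sample, but the control sums at 2 h entered the rule through the limit on the IL-15 difference, which favours genes that are high in control culture at 2 h. Over this step 21 of the 33 genes fell further (edgeR, adjusted p under 0.05), with 26.1% of all genes tested called lower, and the test called 0 higher, also at an unadjusted p under 0.05 and with DESeq2. The median log2 fold change was -0.96, and all 33 estimates were below 0. Among the other culture-lost genes 298 of 415 were called lower over this step.

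Between 2 and 6 h with IL-15, 8 of the 33 genes fell, the same share as the 24.2% of all genes tested that were lower, and 3 rose (25.9% were higher), with a median log2 fold change of -0.23 (edgeR, adjusted p under 0.05). Of the other culture-lost genes, 270 fell over this step with IL-15 and 11 rose. Without animal 38142, 4 of the 33 were called lower (20.8% of all genes tested). With these groups fitted alone 12 fell and 7 rose (32.3% and 28.8% of all genes tested). The IL-15 sums at 2 h also entered the rule. Against the level before culture, 17 of the 33 were lower with IL-15 at 6 h (25.9% of all genes tested were lower) and 1 was higher (27% were higher). Among the other culture-lost genes 362 of 415 were lower. Part of these falls follows from the choice, since the 0 h sums entered the rule for both sets of genes. Whether the effect of IL-15 itself differed between 2 and 6 h was not tested, since the rule limits the difference at 2 h.

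**Figure D3:**
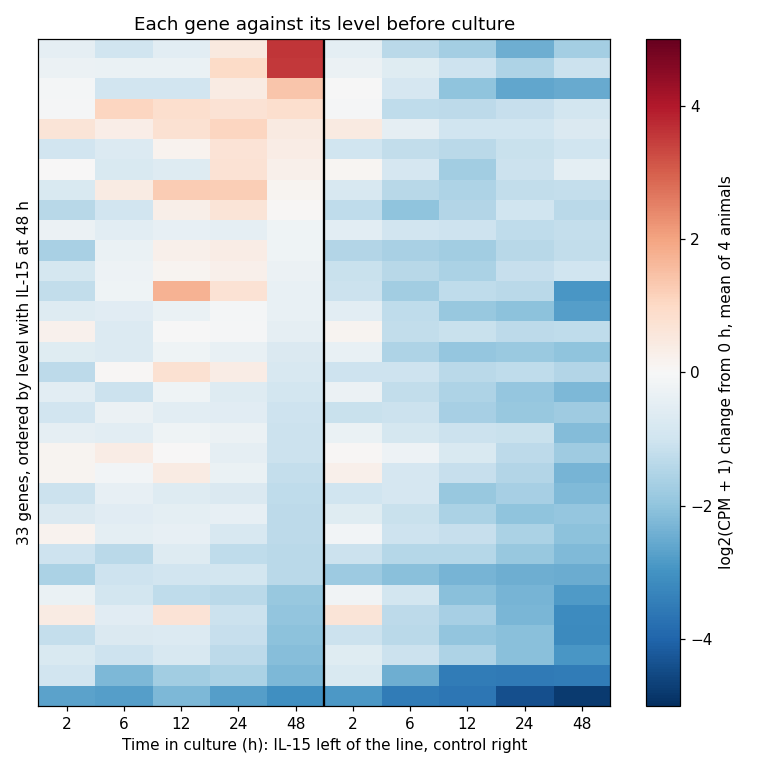
Each of the 33 genes as a row, ordered by its level with IL-15 at 48 h, in cultures with IL-15 (left of the line) and control cultures (right) at 2, 6, 12, 24 and 48 h. Colour is the mean log2(CPM + 1) change from 0 h over 4 animals. The upper rows rise above 0 h with IL-15 by 48 h (up to 3.56), and the lowest row stays down in both kinds of culture (-3.06 with IL-15 and -4.77 in control culture).

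The genes differed in how their levels ran after 12 h. The IL-15 difference peaked for 1 gene at 6 h, 11 genes at 12 h, 12 genes at 24 h and 9 genes at 48 h. The control level was lowest for 1 gene at 6 h, 6 genes at 12 h, 9 genes at 24 h and 17 genes at 48 h. With IL-15 at 48 h, 4 genes lay more than 0.5 above their 0 h level on the log2 scale, 11 within 0.5 of it and 18 more than 0.5 below it. At 24 h these numbers had been 8, 13 and 12.

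Among genes of at least 10 CPM before culture, ENSMFAG00000040783 and ENSMFAG00000042416 had the highest IL-15 differences averaged over 12, 24 and 48 h. ENSMFAG00000040783 had 421, 271, 333 and 196 CPM with IL-15 at 48 h in animals 38142, 38147, 38155 and 38157, against 5.13, 3.41, 11.9 and 9.41 CPM in control culture. Before culture it had 23, 22.8, 18.1 and 35 CPM. Each culture with IL-15 at 48 h was far above the level before culture. The gene was not kept throughout, since with IL-15 each animal was below its 0 h level at 6 and 12 h, and the rise came late. With IL-15 it averaged 12.1 ± 4.43 CPM at 6 h, 16.8 ± 4.24 CPM at 12 h, 34.8 ± 8.23 CPM at 24 h and 305 ± 95.5 CPM at 48 h (SD, n = 4 animals). At 6 h, which the rule used only for the CPM floor, its log2 fold change for IL-15 over control was 0.40 ± 0.27 (SE; edgeR adjusted p = 0.45). With IL-15 at 6 h it was below the level before culture (log2 fold change -1.2 ± 0.27, SE). The 0 h sums entered the rule, so this change is given without a test. Fitted with the 6 h groups alone, the IL-15 difference passed the test (log2 fold change 0.39, edgeR adjusted p = 0.0029).

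ENSMFAG00000042416 followed a like course at a lower level. It had 46.1, 41.4, 48.1 and 32.2 CPM with IL-15 at 48 h, against 1.44, 1.12, 3 and 2.16 CPM in control culture and 19.4, 21.1, 11.2 and 11.5 CPM before culture. All cultures with IL-15 at 48 h were above all samples before culture, and all controls at 48 h below them. At 6 h it had 7.54 ± 1.94 CPM with IL-15 and 8.22 ± 2.35 CPM in control culture (SD, n = 4 animals), and the log2 fold change was -0.10 ± 0.28 (SE; edgeR adjusted p = 0.91). In control culture it was lower at 6 h than at 2 h (log2 fold change -1.15 ± 0.28, SE), and likewise with IL-15 (-1.11 ± 0.28). The 2 h sums entered the rule, so these steps are given without a test. One further gene, at 7.56 CPM before culture and so under the limit for printed IDs, also overshot, to 95 ± 27.9 CPM with IL-15 at 48 h against 2.91 ± 1.2 CPM in control culture.

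**Figure D4:**
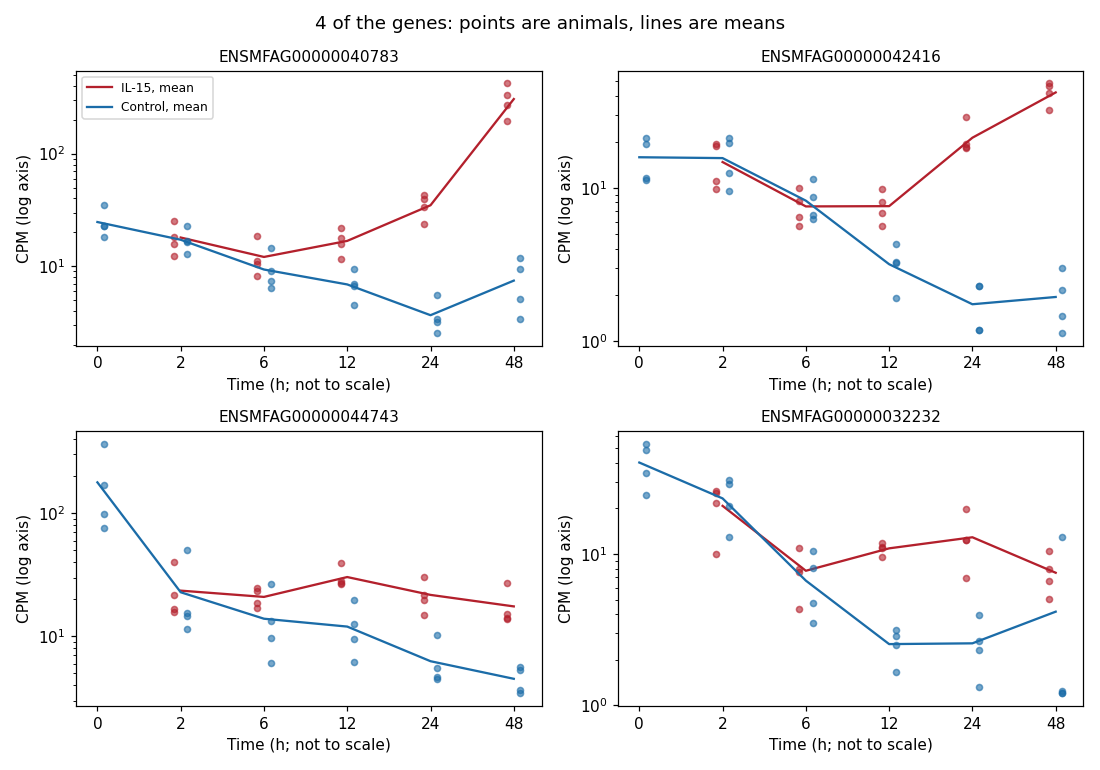
CPM (log axis) against time in hours (not to scale) for the 4 printed IDs, with IL-15 in red and control in blue. Points are the 4 animals and lines their means. The upper genes end above their 0 h level with IL-15 (305 and 41.9 CPM at 48 h), and the lower ones end below it in both kinds of culture (17.5 and 7.52 CPM with IL-15).

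The deepest falls in control culture at 24 h were those of ENSMFAG00000044743 and ENSMFAG00000032232. ENSMFAG00000044743 had 21.7, 19.8, 30.2 and 14.9 CPM with IL-15 at 24 h, against 5.58, 10.3, 4.54 and 4.68 CPM in control cultures and 170, 368, 97.8 and 76.5 CPM before culture (animals 38142, 38147, 38155 and 38157). The cultures with IL-15 were above all controls and below all samples before culture, so IL-15 went with a smaller loss, not with the level before culture. Most of the loss was there at 2 h, with 23.5 ± 11.3 CPM with IL-15 and 22.8 ± 18.1 CPM in control culture (SD, n = 4 animals). It was picked by its fall from 0 h, so changes from 0 h are given for it without a test. At 6 h the log2 fold change of IL-15 over control was 0.73 ± 0.38 (SE; edgeR adjusted p = 0.28), with 20.9 ± 3.6 CPM with IL-15 and 13.9 ± 8.9 CPM in control culture (SD, n = 4 animals).

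ENSMFAG00000032232 fell later than that. It had 40.2 ± 13.3 CPM before culture, 23.3 ± 8.2 CPM in control culture at 2 h and 6.67 ± 3.15 CPM at 6 h (SD, n = 4 animals). The step between 2 and 6 h in control culture was -2.14 ± 0.42 on the log2 scale (SE), and with IL-15 it was -1.62 ± 0.42. The 2 h sums entered the rule, so these steps are given without a test. At 6 h the gene had 7.75 ± 2.75 CPM with IL-15, and the log2 fold change over control was 0.27 ± 0.41 (SE; edgeR adjusted p = 0.80). At 24 h its animals had 6.97, 12.4, 19.9 and 12.3 CPM with IL-15, against 1.33, 2.32, 3.96 and 2.67 CPM in control culture, with no overlap. At 48 h animal 38155 had 10.4 CPM with IL-15 and 13 CPM in control culture. Animals 38142, 38147 and 38157 had 6.65, 5.08 and 7.96 CPM with IL-15, against 1.21, 1.2 and 1.25 CPM in control culture.

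That control culture stood apart for many of the 33 genes, a pattern singled out after the values were seen. In animal 38155 at 48 h their summed level was 5007 CPM with IL-15 and 4721 CPM in control culture. In animals 38142, 38147 and 38157 it was 3447, 2984 and 2562 CPM with IL-15, against 1182, 1060 and 1353 CPM in control culture. For 14 of the 33 genes the control culture of 38155 at 48 h was at least 2-fold above the highest of the other animals, as it was for 1.66% of the genes over the floor. No gene of the 33 was so in the control cultures at 48 h of the other animals. These 14 genes summed to 2810 CPM with IL-15 and 3826 CPM in control culture at 48 h in animal 38155. They summed to 1191 CPM in its control culture at 24 h and 2160 CPM before culture. The most abundant of them in that control culture at 48 h had 2143 CPM there, against 1179 CPM with IL-15 and 543.5 CPM before culture. On the log2 scale the median change of the 14 genes from before culture was 0.3 with IL-15 and 0.32 in control culture at 48 h. The higher sum in control culture than with IL-15 was thus not seen in the median. The IL-15 difference at 48 h was above 0 for 26 of the 33 genes in 38155 and for 33, 33 and 32 in animals 38142, 38147 and 38157. Of the genes over the floor, 44.6% were above 0 in 38155 and 40.8%, 45.1% and 42.7% in the others. The 48 h sums entered the rule, which makes high counts likely.

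**Figure D5:**
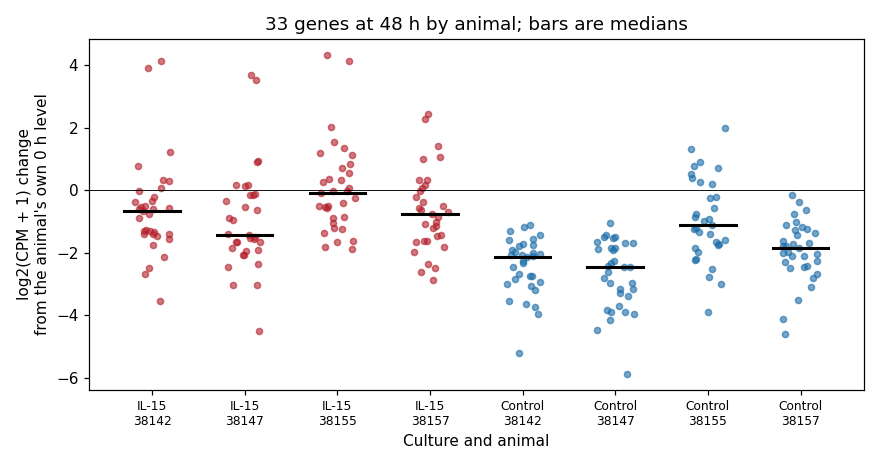
Change of each of the 33 genes at 48 h from the animal's own level before culture, log2(CPM + 1), by culture and animal, with bars at the medians. The medians with IL-15 lay between -1.43 and -0.08. In control culture animal 38155 had a median of -1.11 and the others had -2.15, -2.47 and -1.85.

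The same measures were also read in an animal that had no part in the choice. The rule was run on 3 animals, and the genes it chose were read in the fourth, as a description. Chosen without 38142, 26 genes had a median IL-15 difference of 1.6 at 24 h in that animal, and 26 of 26 were above 0, against 40.6% of the genes over the floor. Chosen without 38147, 26 of 26 genes were above 0 in it, with a median of 1.34 (36.4% of the genes over the floor). Without 38155 it was 39 of 39 genes, with a median of 1.73 (31.7%), and without 38157 36 of 39, with a median of 1.04 (41.7%). At 48 h the numbers above 0 were 26 of 26, 26 of 26, 29 of 39 and 37 of 39 in these animals. Of the genes over the floor, 40.7%, 45.1%, 44.7% and 42.6% were above 0 at 48 h in the same order. Membership moved with the animals, since 25, 20, 30 and 32 of the genes so chosen were among the 33.

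Near the limits the choice was close. The weakest control change inside the limit was -1.005 and the next outside was -0.975, and 220 genes met every limit but this one. For the IL-15 difference at 2 h, the values next to the limit were 0.297 inside and 0.311 outside. For 12 h they were 0.618 and 0.586, for 24 h 0.612 and 0.495, and for 48 h 0.634 and 0.534.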

How the data were processed

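The authors deposited whole-number counts per gene for 132 libraries of messenger RNA (KAPA mRNA HyperPrep after Qiagen RNeasy extraction, per the labels' protocols), in a table with cynomolgus gene IDs and another with rhesus IDs. For aligner, counting tool, build and annotation: not given in the sources used here. Totals per library were 16423972 to 87944372 counts (median 27185130). Reads amplified by PCR were counted without molecular identifiers, so counting error understates the spread.

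Libraries were grouped by their titles. The labels leave it unsaid if the 3 numbered libraries stem from separate cultures, so they were summed and the animal was the replicate (n = 4). P-values set a difference against the spread left after the group and animal terms, estimated from all 44 sums, and not against the spread between animals. The main test was edgeR 4.0.16 in R 4.3.3 (TMM, filterByExpr on groups, robust quasi-likelihood fit, group and animal terms, 44 sums in 1 fit, 18197 genes), with Benjamini-Hochberg adjustment over all genes. Each SE is the log2 fold change divided by the root of its F statistic. DESeq2 1.42.0 was an alternative. The same animal in every group pairs the samples, and deviations from group means of its IL-15 and control sums correlated above 0.1 in 20 of 20 pairs (lowest r 0.571). Libraries were set apart when their distance (root mean square of log2(CPM + 1) differences) from the closest sister library exceeded 0.378, the median plus 5 scaled median absolute deviations.

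The genes, lists and tests were chosen with earlier results of these data known. Printed IDs are, among genes of at least 10 CPM before culture, the 2 with the highest mean IL-15 difference at 12, 24 and 48 h and the 2 others with the lowest control change at 24 h. The 22 planned gene lists need symbols and were not run. Other genes are described without an ID. Alternatives were other scalings, filters, tools, units, samples and blocks, each animal left out, other limits of the rule and the rhesus table.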

Additional observations from a re-analysis of the deposited data

Results flagged for a closer look

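Of 55 groups of 4 animals examined for the printed IDs and for the summed level of the 33 genes, 6 held an animal whose gap to the others was large for the group's range, where chance gives about 1 in 20. The summed level of the 33 genes in control culture at 48 h was 4721 CPM in animal 38155, far above the other 3 animals. In the same group ENSMFAG00000032232 stood at 13 CPM in that animal. ENSMFAG00000044743 was highest in animal 38155 with IL-15 at 12 h (39.2 CPM) and at 48 h (27.1 CPM), and in animal 38147 in control culture at 2 h (49.9 CPM). ENSMFAG00000042416 was highest in animal 38142 with IL-15 at 24 h (29.1 CPM). Animal 38155 was thus the one apart in 4 of these 6 groups, and the cause was not tested.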

How the results depend on the processing

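The number of genes that met the rule was 64 with TMM-scaled CPM, 17 with stricter limits (control change at most -1.2, IL-15 differences at least 0.8), 59 with looser ones (-0.8 and 0.4), 26 to 39 with an animal left out and 32 in the rhesus table, whose IDs were not matched to these. Other pseudocounts (0.5 and 2), CPM floors (1 and 10) and means of single libraries gave 29 to 35. With libraries entered singly, and likewise with the library number as a replicate block, 22 of the 33 genes were higher with IL-15 at 6 h, 20 were lower and 2 higher in control culture at 2 h, 27 were lower with IL-15 at 6 h than at 0 h, and 8 rose and 14 fell between 2 and 6 h with IL-15. Of all genes tested, the fit of single libraries called 12%, 37.4%, 30.5%, 35.2%, 32.4% and 33.9% in the same order. Both fits treat libraries of 1 animal as independent. Without a term for the animal, that is with no replicate block, 3 were higher with IL-15 at 6 h, 6 lower in control culture at 2 h, 13 lower in control culture at 6 h than at 2 h, and 4 fell between 2 and 6 h with IL-15. Of all genes tested, that fit called 1.64%, 19.2%, 17.9% and 15.5% in the same order. With only the groups compared and the animal as a block, 18 were higher with IL-15 at 6 h. In that setting 20 were lower and 5 higher in control culture at 2 h, and 7 rose between 2 and 6 h with IL-15. The shares of all genes tested were 11.6%, 30.1%, 29.6% and 28.8%. With each animal and time as a block 16 were higher at 6 h (6.86% of all genes tested). With an animal left out, 5 to 12 were higher with IL-15 at 6 h (2.47% to 3.64% of all genes tested). In those fits 8 to 13 were lower in control culture at 2 h (23.7% to 25.8%), and 4 to 10 fell between 2 and 6 h with IL-15 (20.8% to 23.9%). The cause of these moves was not tested. RLE scaling, DESeq2, the filters on low counts and leaving out the 3 libraries that stood apart, an alternative added after seeing the data, moved no count of called genes by more than 1.5 times. For the printed IDs, 398 values under these alternatives kept their direction and side of the threshold, 18 passed it that had not, 3 no longer passed it and 1 changed sign, the control change of ENSMFAG00000042416 at 2 h, which was 0.05 and became -0.01 with the stricter filter.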

Other observations

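One gene carried 45.4% of the summed level of the 33 genes in the control culture of animal 38155 at 48 h, and it was singled out after its values were seen. At 48 h animal 38155 had 1179 CPM of it with IL-15 and 2143 CPM in control culture. Animals 38142, 38147 and 38157 had 518.8, 183 and 159.9 CPM with IL-15, against 101.3, 50.45 and 222.1 CPM in control culture. All 3 control libraries of 38155 at 48 h showed the level (2017, 2303 and 2176 CPM). Single libraries of 2 other animals also differed from their sisters for this gene, with 215.4 CPM against 56.43 and 49.45 CPM in 38142 and 574.3 CPM against 60.46 and 85.47 CPM in 38157. Before culture the gene had 543.5 CPM in 38155 and 414.2, 166.6 and 246.1 CPM in the other animals.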
